A study of Homo sapiens with 16 samples.

Results

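The p53 target genes examined here are 33 genes that p53 is known to switch on, selected by symbol from the 28502 gene symbols listed for each RNA-seq library. The only measured value in the selection rule was a minimum mean of 1 FPKM (fragments scaled by transcript length and by the mapped total). Of the 33 genes 30 passed, among 11845 loci that passed in all. The list was chosen with earlier results of these data known, so counts of members set against all loci are descriptive only. A locus here is 1 symbol, or several symbols that carry identical values in every library. EDA2R, a receptor of the TNF receptor family, was listed at 0 in all 6 libraries. SPATA18, which acts in mitochondrial quality control, was between 0 and 0.148 FPKM. TRIM22, an interferon-inducible ubiquitin ligase, was between 0.128 and 0.344 FPKM. Nearest to the minimum on the other side was PANK1, with a mean of 1.40 FPKM, against 0.271 FPKM for TRIM22.

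p53 is a transcription factor that is stabilised by DNA damage and other stress and then activates genes that arrest the cell cycle, repair DNA, limit oxidative damage or promote cell death. MDM2, itself a p53 target, encodes the ubiquitin ligase that marks p53 for degradation and so closes a feedback loop. CDKN1A encodes p21, the inhibitor of cyclin-dependent kinases through which p53 halts proliferation. HCT116 is an established human colorectal carcinoma line.

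All 16 samples of the series are HCT116 cells; expression comes from 6 RNA-seq libraries of poly(A) RNA, and 10 chromatin samples were not analysed here. Cells had been transfected with a control labelled NC or with siRNA against EZH1 (siEZH1) or UXT (siUXT), and each transfection was given PBS or TNF, with 1 library for every combination. For the dose and duration of TNF, the siRNA sequences and the meaning of NC, nothing is stated in the sources used here. EZH1 is a histone H3 lysine 27 methyltransferase and UXT a small prefoldin-like protein. All values come from 1 cell line, and no combination was repeated. In such bulk RNA, fewer cells of a kind and less RNA per cell cannot be told apart.

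Epithelial markers were expressed: 7 of 8 had a mean of at least 1 FPKM, with VIL1 below it, and their sum was 1768.7 to 2598.5 FPKM. Markers of leukocytes summed to at most 0.399 FPKM and those of endothelium to at most 0.257 FPKM. Fibroblast markers summed to 5.88 to 8.64 FPKM, nearly all of it COL1A1. UXT was at 62.2 and 59.6 FPKM in the NC libraries with PBS and TNF and at 27.7 and 24.6 FPKM in the siUXT libraries, while EZH1 was at 5.45 and 5.12 FPKM in NC and at 4.05 and 4.14 FPKM in siEZH1. Relative to NC PBS, sequencing depth read from the smallest steps between values was 0.721 in NC TNF and 0.724 in siEZH1 TNF, and between 0.95 and 1.02 in the other 3. The siUXT PBS library stood apart from the rest: 772 loci were at least 2-fold lower in it than in NC PBS, against 43 in siUXT TNF compared with NC TNF. The counts of genes called by the model are therefore also given without it.

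CDKN1A and GDF15, a cytokine related to TGF-beta that cells secrete under stress, had the highest FPKM levels of the 33 genes in untreated control cells, at 105 and 101 FPKM in NC PBS. They were followed by RPS27L, a ribosomal protein paralog, at 48.3 FPKM, FDXR, the mitochondrial ferredoxin reductase, at 41.2 FPKM and TRIAP1, a small mitochondrial survival protein, at 40.2 FPKM. CDKN1A and GDF15 differed from each other by less than either varied between libraries, and so did RPS27L, FDXR and TRIAP1 among themselves. MDM2 was at 27.3 FPKM in NC PBS, near PLK2 at 27.4 FPKM and SERTAD1 at 28.6 FPKM. The lowest tested members were PANK1, a pantothenate kinase of coenzyme A synthesis, at 1.45 FPKM and TNFRSF10C, a decoy receptor for TRAIL, at 2.61 FPKM. TNFRSF10C carries the same values as LOC254896 in every library, so its reads cannot be assigned to 1 gene.

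**Figure D1:**
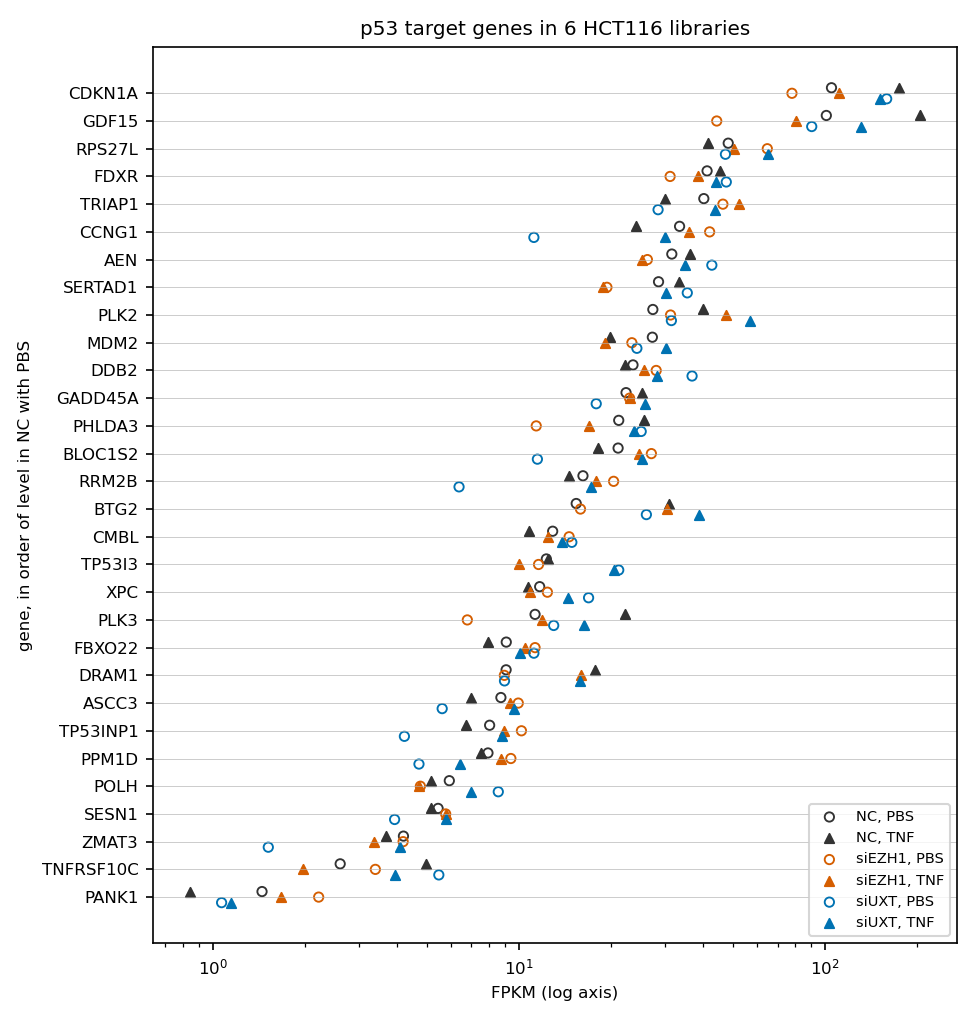
FPKM (horizontal log axis) of the 30 tested p53 target genes (vertical axis, ordered by level in NC PBS) in each of the 6 libraries; colour gives the transfection, open circles PBS and filled triangles TNF. CCNG1, RRM2B and ZMAT3 sit far to the left in siUXT PBS alone, at 11.2, 6.38 and 1.52 FPKM.

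Promoters were searched because members that carry a p53 motif next to their start could be compared with those that do not. RefSeq promoter windows of GRCh38.p14, from 250 bases before to 50 bases after a transcript start, were found for 24 of the 33 genes, with 37 windows in all. The p53 half-site consensus, a palindrome of 10 bases, was present without mismatch in 7 of these 37 windows, against 6.63% of all 35116 windows in the table. A full site of 2 half-sites, up to 13 bases apart with at most 2 mismatches and intact core bases, was present in 6 of the 37 windows, against 2.93% of all windows. These 6 windows belong to 5 of the 24 genes, because the 2 windows of MDM2 hold the same site. Many p53 sites are known to lie in introns or farther upstream, so a window without a match says only that these letters are not in it. The kappaB consensus, searched on both strands, was in 0 of the 37 windows, against 5.91% of all windows.

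The following sequences show, 5′ to 3′ on the strand of the gene, each p53 motif of a member that lies wholly before or wholly after the start, with the motif in capitals and up to 20 flanking bases upstream of the start in lower case. DDB2 (chr11:47214979-47214999, plus strand) had 2 perfect half-sites 1 base apart, from position 6 of the transcript, and only 10 windows in the table, 0.0285%, held such a site without mismatch. MDM2 (chr12:68808903-68808962, plus strand) had a full site with 2 mismatches and no spacer, 94 bases before the nearer of its 2 listed starts. AEN (chr15:88621286-88621339, plus strand) had one with 2 mismatches 34 bases before the start, and FDXR (chr17:74872995-74873045, minus strand) one with 2 mismatches and a spacer of 10 bases, 31 bases before it. On the other lines the capitals mark 1 perfect half-site: PLK2 (chr5:58460189-58460238, minus strand), SESN1 (chr6:109009008-109009057, minus strand), PANK1 (chr10:89645243-89645285, minus strand) and RPS27L (chr15:63157507-63157556, minus strand). PANK1 is also among the genes with a full site of at most 1 mismatch, which 0.402% of all windows held, and only its perfect half-site is marked.
DDB2: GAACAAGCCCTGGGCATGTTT
MDM2: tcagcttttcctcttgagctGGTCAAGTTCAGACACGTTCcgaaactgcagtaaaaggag
AEN: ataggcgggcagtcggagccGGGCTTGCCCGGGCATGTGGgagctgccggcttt
FDXR: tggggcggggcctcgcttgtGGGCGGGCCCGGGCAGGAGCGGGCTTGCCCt
PLK2: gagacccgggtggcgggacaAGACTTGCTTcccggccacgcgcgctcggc
SESN1: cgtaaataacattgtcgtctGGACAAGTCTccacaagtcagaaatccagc
PANK1: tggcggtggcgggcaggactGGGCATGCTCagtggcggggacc
RPS27L: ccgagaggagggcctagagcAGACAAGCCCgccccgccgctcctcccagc

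The members with these sites did not share 1 pattern in the libraries, as the values that follow show. PLK2 was higher with TNF in every transfection, while AEN and FDXR were lower in both siEZH1 libraries and DDB2 was higher in both siUXT libraries. GDF15, the member that differed most after siEZH1, had no perfect half-site in its window. Its window held a TATA box (TATAAA, searched on both strands), which 11.5% of all windows hold and no other member window did. It lies 29 bases before the start (chr19:18386109-18386154, plus strand) and is shown because GDF15 had the largest siEZH1 difference of the 30 tested genes.
GDF15: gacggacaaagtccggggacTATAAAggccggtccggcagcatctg

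With TNF, the antiproliferative and stress genes BTG2, PLK2, PLK3 and GDF15 and the autophagy gene DRAM1 were higher in all 3 transfections, by a mean of 0.65 to 0.81 on the log2(FPKM + 1) scale. With GADD45A, 6 of the 30 members were higher in all 3 pairs, against 9.08% of all loci. CDKN1A was higher in NC and siEZH1 but not in siUXT. MDM2, CCNG1 and the DNA repair genes were not higher in NC or siEZH1. Limma was fitted to the 6 libraries with additive terms for transfection and for treatment. By this fit 0 of the 30 members were called at a Benjamini-Hochberg adjusted p under 0.05, where 0.405% of all 11845 loci were called higher and 0.00844% lower. At an unadjusted p under 0.05 limma gave 5 members higher, against 2.92% of all loci, and 0 lower, against 1.04%. The model has 2 residual degrees of freedom. Whether libraries with PBS and TNF came from separate transfections is not stated. With no combination repeated, a gene's own spread is how far its TNF difference varied between NC, siEZH1 and siUXT. A knockdown effect on the TNF response and technical spread are mixed in it and cannot be told apart. For the p-values limma moderated each gene's own spread toward that of all loci at a similar level, with 4.422 prior degrees of freedom. The SD values given below are the spread over the same 3 transfections.

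Among the cell cycle genes, BTG2, an antiproliferative cofactor of transcript turnover, was at 15.4, 15.9 and 26.1 FPKM with PBS and at 30.9, 30.4 and 38.7 FPKM with TNF in NC, siEZH1 and siUXT. All 3 TNF values lay above all 3 PBS values, and the mean log2 difference was 0.80 ± 0.22 (SD, n = 3 transfections) with a limma Benjamini-Hochberg adjusted p of 0.20. PLK2, a polo-like kinase of the centriole cycle, was at 27.4, 31.3 and 31.5 FPKM with PBS and at 40.1, 47.6 and 56.8 FPKM with TNF, again without overlap. Its mean log2 difference was 0.65 ± 0.16 (SD, n = 3), with a limma Benjamini-Hochberg adjusted p of 0.31. PLK3, its stress-responsive relative, was at 11.3, 6.79 and 13.0 FPKM with PBS and at 22.3, 11.9 and 16.3 FPKM with TNF. Here the groups overlapped, because the siEZH1 TNF value lay below the siUXT PBS value, although every pair had the higher value with TNF. PLK3 had a mean log2 difference of 0.65 ± 0.31 (SD, n = 3) and a limma Benjamini-Hochberg adjusted p of 0.57.

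CDKN1A was at 105 FPKM with PBS and 175 FPKM with TNF in NC, at 78.0 and 111 FPKM in siEZH1 and at 159 and 151 FPKM in siUXT. In siUXT the TNF value was slightly below the PBS value. The siUXT PBS library, which stood apart over all loci, lay above NC PBS for this gene. The mean log2 difference of 0.38 ± 0.41 (SD, n = 3) was smaller than its spread, with a limma Benjamini-Hochberg adjusted p of 1.0. GADD45A, a growth arrest and DNA damage protein, was at 22.4, 23.0 and 17.9 FPKM with PBS and at 25.3, 23.0 and 25.9 FPKM with TNF. It was higher in every pair, but in siEZH1 by 0.00 on the log2 scale. Non-overlap with TNF on top held for 4 of the 30 members (PLK2, BTG2, GADD45A and DRAM1), against 3.47% of all loci, and with TNF below for 0 members, against 3.04%.

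**Figure D2:**
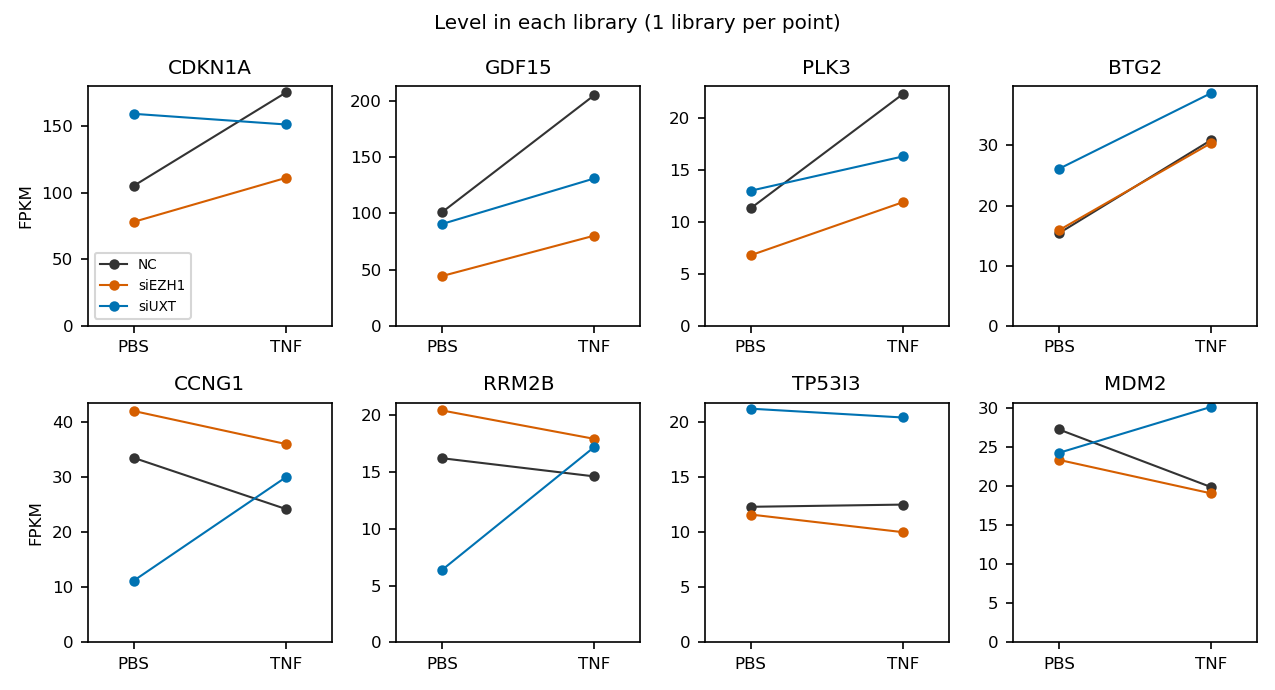
FPKM (vertical axis from 0) of 8 p53 target genes in each library, with PBS and TNF on the horizontal axis, 1 point per library and 1 line per transfection. The lines of GDF15, PLK3 and BTG2 climb from PBS to TNF in all 3 transfections, and CCNG1 and RRM2B climb in siUXT alone, from 11.2 to 30.0 and from 6.38 to 17.2 FPKM.

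The feedback genes and CCNG1 behaved differently from BTG2 and the polo-like kinases. MDM2 was at 27.3 FPKM with PBS and 19.9 FPKM with TNF in NC, at 23.4 and 19.1 FPKM in siEZH1 and at 24.3 and 30.2 FPKM in siUXT. Its TNF value was thus lower in NC and siEZH1 and higher in siUXT, and the mean of -0.14 ± 0.39 (SD, n = 3) was smaller than its spread. CCNG1, cyclin G1, which works with MDM2 in restraining p53, was at 33.5 and 24.2 FPKM in NC, at 42.0 and 36.0 FPKM in siEZH1 and at 11.2 and 30.0 FPKM in siUXT. PPM1D, a phosphatase that switches off p53 signalling, was at 7.93 and 7.51 FPKM in NC and at 9.42 and 8.77 FPKM in siEZH1. The pattern of a lower TNF value in NC and siEZH1 with a higher one in siUXT held for 10 of the 30 members, against 23.9% of all loci. SERTAD1, a cofactor of E2F-dependent transcription, was between 18.9 and 35.5 FPKM in the 6 libraries, with a mean TNF difference of -0.02 ± 0.22 (SD, n = 3).

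The 5 genes of DNA repair and nucleotide supply had a median TNF difference of -0.14 in NC and -0.13 in siEZH1. Over all loci the medians were -0.02 and 0.01. Higher with TNF were 0 of the 5 in NC and in siEZH1, against 5595 and 6060 of all 11845 loci. XPC, which recognises helix-distorting damage, was at 11.7, 12.4 and 16.9 FPKM with PBS and at 10.7, 10.9 and 14.5 FPKM with TNF in NC, siEZH1 and siUXT. DDB2, which recognises ultraviolet photoproducts, was at 23.6, 28.1 and 36.8 FPKM with PBS and at 22.3, 25.7 and 28.2 FPKM with TNF. Together with POLH, a translesion polymerase, FBXO22, an F-box protein of a ubiquitin ligase, and CMBL, a hydrolase, they made up 5 members that were lower with TNF in all 3 transfections. That is 16.7% of the 30 members, against 11.1% of all loci, and none of the 5 had a mean difference beyond -0.19. RRM2B, the p53-inducible ribonucleotide reductase subunit, and ASCC3, an alkylation repair helicase, had small negative differences in NC and siEZH1 but were higher with TNF in siUXT, RRM2B at 17.2 against 6.38 FPKM.

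Among the 7 tested genes of cell death and survival, none was higher in all 3 transfections and none was lower in all 3. Over all loci the shares were 9.08% and 11.1%, and with so few genes 0 does not differ clearly from them. PHLDA3, an inhibitor of AKT signalling, was at 21.2 and 25.6 FPKM in NC, at 11.4 and 17.0 FPKM in siEZH1 and at 25.1 and 23.8 FPKM in siUXT. AEN, an apoptosis-enhancing nuclease, was between 25.3 and 42.7 FPKM with a mean TNF difference of -0.05 ± 0.24 (SD, n = 3), and TP53I3, a quinone oxidoreductase, had one of -0.08 ± 0.11 (SD, n = 3). ZMAT3, an RNA-binding zinc finger protein, and TP53INP1, which aids p53 phosphorylation and autophagy, were slightly lower with TNF in NC and siEZH1 and higher in siUXT, by 1.01 and 0.90 on the log2 scale. The TNFRSF10C locus was at 2.61 and 4.96 FPKM in NC, but at 3.40 and 1.97 FPKM in siEZH1 and at 5.48 and 3.95 FPKM in siUXT, so its direction differed between transfections.

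DRAM1, a lysosomal membrane protein that promotes autophagy, had the most even TNF difference of the 30 members among those higher with TNF in all 3 pairs. It was at 9.09, 8.97 and 8.98 FPKM with PBS and at 17.7, 16.0 and 15.9 FPKM with TNF in NC, siEZH1 and siUXT. The groups did not overlap, the mean log2 difference was 0.81 ± 0.07 (SD, n = 3), and limma gave an unadjusted p of 0.0013 and a Benjamini-Hochberg adjusted p of 0.17. Other metabolic members differed little: FDXR had a mean of 0.11 ± 0.20 and SESN1, a sestrin that restrains mTORC1, of 0.14 ± 0.29 (SD, n = 3). PANK1 was at 1.45 and 0.841 FPKM in NC and at 2.22 and 1.67 FPKM in siEZH1.

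GDF15 was at 101 and 205 FPKM in NC, at 44.3 and 80.2 FPKM in siEZH1 and at 90.5 and 131 FPKM in siUXT, PBS first. It was higher with TNF in every transfection, at 2.04, 1.81 and 1.44 times its PBS value, yet the siEZH1 TNF value stayed below both other PBS values. The mean log2 difference was 0.80 ± 0.25 (SD, n = 3), with a limma Benjamini-Hochberg adjusted p of 0.17. RPS27L and BLOC1S2, a subunit of a lysosome-positioning complex, were lower with TNF in NC and siEZH1 and higher in siUXT, BLOC1S2 at 25.3 against 11.5 FPKM there.

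**Figure D3:**
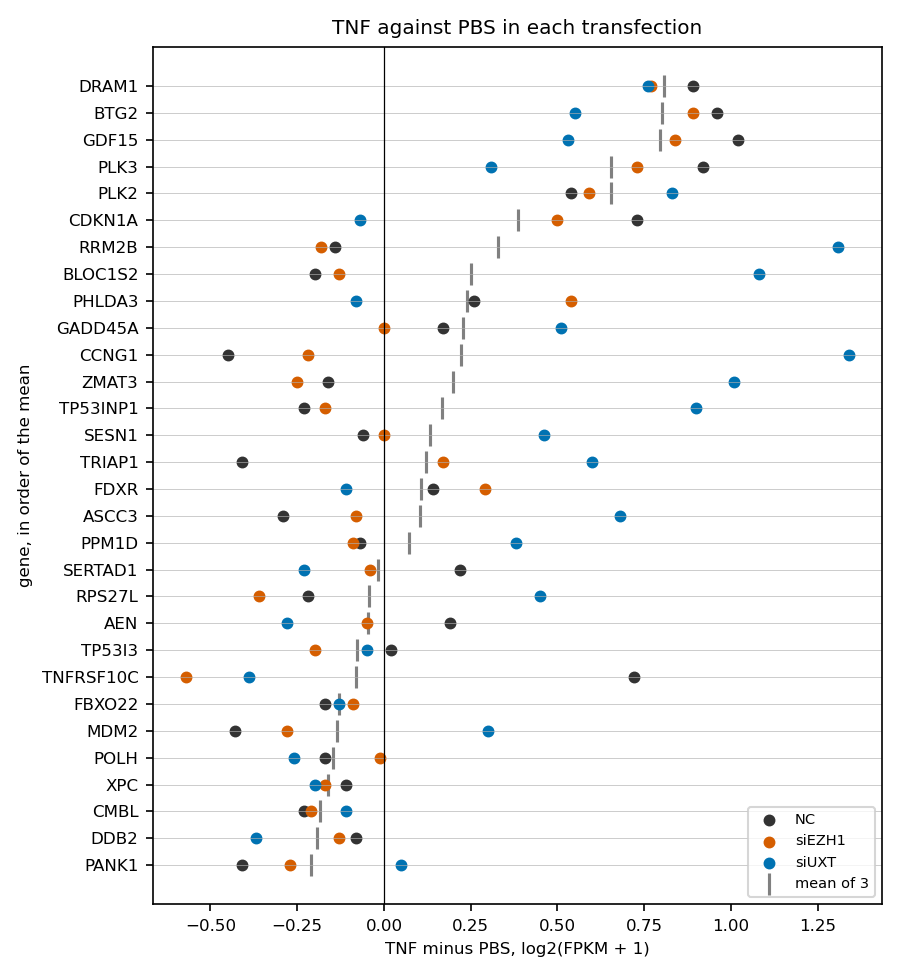
Difference between TNF and PBS on the log2(FPKM + 1) scale (horizontal axis) for the 30 tested genes (vertical axis, ordered by the mean), with 1 point per transfection and a grey bar for the mean of 3. DRAM1, BTG2, GDF15, PLK3 and PLK2 have all 3 points right of 0, and the siUXT points of CCNG1, RRM2B, BLOC1S2 and ZMAT3 lie beyond 1 while their other points lie left of 0.

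The siUXT PBS library bears on these results. Left out, the TNF estimate rests on the NC and siEZH1 pairs, and limma called 6 of the 30 members higher (CDKN1A, GDF15, PLK2, PLK3, BTG2 and DRAM1) and 0 lower, against 2.47% and 0.295% of all loci. The limma Benjamini-Hochberg adjusted p in that fit lay between 0.0018 for GDF15 and 0.013 for CDKN1A and PLK2. Leaving out siUXT TNF in its place gave the same 6 genes, against 2.48% and 0.287% of all loci, since either way the siUXT pair no longer enters; the spread then has 1 residual degree of freedom. Leaving out an NC or siEZH1 library in turn, limma called 0 members, against 0.844% (either siEZH1 library), 0.861% (NC PBS) and 0.878% (NC TNF) of all loci higher and 0.203% to 0.22% lower. Without an NC or siEZH1 library limma gave every gene the spread of all loci at its level (infinite prior degrees of freedom). Those counts are therefore not like for like with the counts without a siUXT library. The members had median TNF differences of -0.07 (NC), -0.09 (siEZH1) and 0.34 (siUXT), against -0.02, 0.01 and -0.05 over all loci. Differences also went with genomic gene span: across the 30 members Spearman's rho with the TNF difference was -0.43 (NC), -0.41 (siEZH1) and 0.0 (siUXT), and across 9627 loci with 1 symbol and a RefSeq span it was -0.21, -0.17 and 0.22. All points of 1 pair share the same 2 libraries, and the part of span or of depth in the gene differences was not tested.

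After siEZH1, GDF15, PLK3, PHLDA3, SERTAD1 and CDKN1A were lower than in NC with PBS and with TNF, by 0.54 to 1.26 on the log2 scale on average. Among those higher with both treatments were CCNG1, BLOC1S2, RPS27L, TRIAP1, RRM2B and PANK1, by 0.30 to 0.49. In all, 15 of the 30 members were higher with both treatments and 12 were lower, against 40.7% and 37.7% of all loci. Limma called 0 of the 30 members at a Benjamini-Hochberg adjusted p under 0.05, where it called 0.0% of all loci higher and 0.0169% lower. At an unadjusted p under 0.05 limma gave 0 members higher, against 1.7% of all loci, and 5 lower, against 6.51%.

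GDF15 stood at 0.44 of its NC value with PBS and at 0.391 with TNF, and both siEZH1 libraries lay below both NC libraries. The log2 differences were -1.17 and -1.35, and limma's estimate was -1.26 with an SE of 0.18, an unadjusted p of 0.00033 and a Benjamini-Hochberg adjusted p of 0.60. PLK3 stood at 0.603 and 0.535 of NC, and GDF15 and PLK3 were the 2 members at least 1.5-fold lower with both treatments, which 2.38% of all loci were. No member was at least 1.5-fold higher with both treatments, against 0.464% of all loci. The siEZH1 TNF value of PLK3 lay above NC PBS, so its libraries were not fully separated.

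PHLDA3 stood at 0.538 and 0.665 of NC, SERTAD1 at 0.679 and 0.565 and CDKN1A at 0.742 and 0.633, PBS first. CDKN1A in siEZH1 TNF, at 111 FPKM, reached the level of NC PBS, at 105 FPKM. AEN and FDXR, whose promoter sites are printed above, were lower too, with log2 differences of -0.26 and -0.50 for AEN and of -0.39 and -0.23 for FDXR. For both, each siEZH1 library lay below each NC library. Such full separation below NC held for 7 of the 30 members (FDXR, GDF15, TP53I3, PHLDA3, AEN, POLH and SERTAD1), against 28.4% of all loci, and above NC for 12, against 31.1%.

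The 12 members above NC included CCNG1 at 1.26 and 1.48 times its NC value, RRM2B at 1.26 and 1.23 times, TP53INP1 at 1.27 and 1.34 times and TRIAP1 at 1.16 and 1.74 times. RPS27L was at 64.8 and 50.3 FPKM in siEZH1 against 48.3 and 41.4 FPKM in NC, and BLOC1S2 at 27.1 and 24.6 FPKM against 21.1 and 18.2 FPKM. SESN1, DDB2, FBXO22, PPM1D, ASCC3 and PANK1 were the others, with log2 differences between 0.07 and 0.53. Repair genes had medians of 0.17 with PBS and 0.20 with TNF, and 4 of 5 were higher with both treatments, against 40.7% of all loci; POLH was lower, at -0.26 and -0.11. MDM2 was close to NC, at 0.857 and 0.957 of it, and so were BTG2, DRAM1, ZMAT3, XPC and GADD45A, each with differences within 0.14 in size. PLK2 and CMBL were slightly higher, by 0.17 to 0.24.

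Without siUXT PBS, limma called 7 members lower (CDKN1A, FDXR, GDF15, PHLDA3, AEN, PLK3 and SERTAD1), against 14.7% of all loci, and 5 higher (RRM2B, CCNG1, RPS27L, BLOC1S2 and TRIAP1), against 11.8%. Without siUXT TNF it called the same 7 and 4 of the 5, with RRM2B not called, against 14.8% and 11.3%. Without NC PBS it called GDF15 lower, against 0.253% of all loci, and 0 members higher, against 0.16%. Without NC TNF, siEZH1 PBS or siEZH1 TNF it called 0 members, against 0.211%, 0.236% and 0.203% of all loci lower and 0.169%, 0.118% and 0.152% higher. The estimates without a siUXT library are the same as with all libraries, and what differs is the spread. A gene's own part of it comes from the NC and siEZH1 pairs, with 1 residual degree of freedom. The part moderated over all loci has 5.152 prior degrees of freedom without siUXT PBS and 5.182 without siUXT TNF. Without an NC or siEZH1 library every gene took the spread of all loci at its level. The median siEZH1 difference of the 30 members was 0.08 with PBS and 0.0 with TNF, against 0.0 and 0.02 over all loci. Spearman's rho with gene span was 0.29 and 0.32 across the members and 0.26 and 0.27 across all 9627 loci with a span; its part in the gene differences was not tested.

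**Figure D4:**
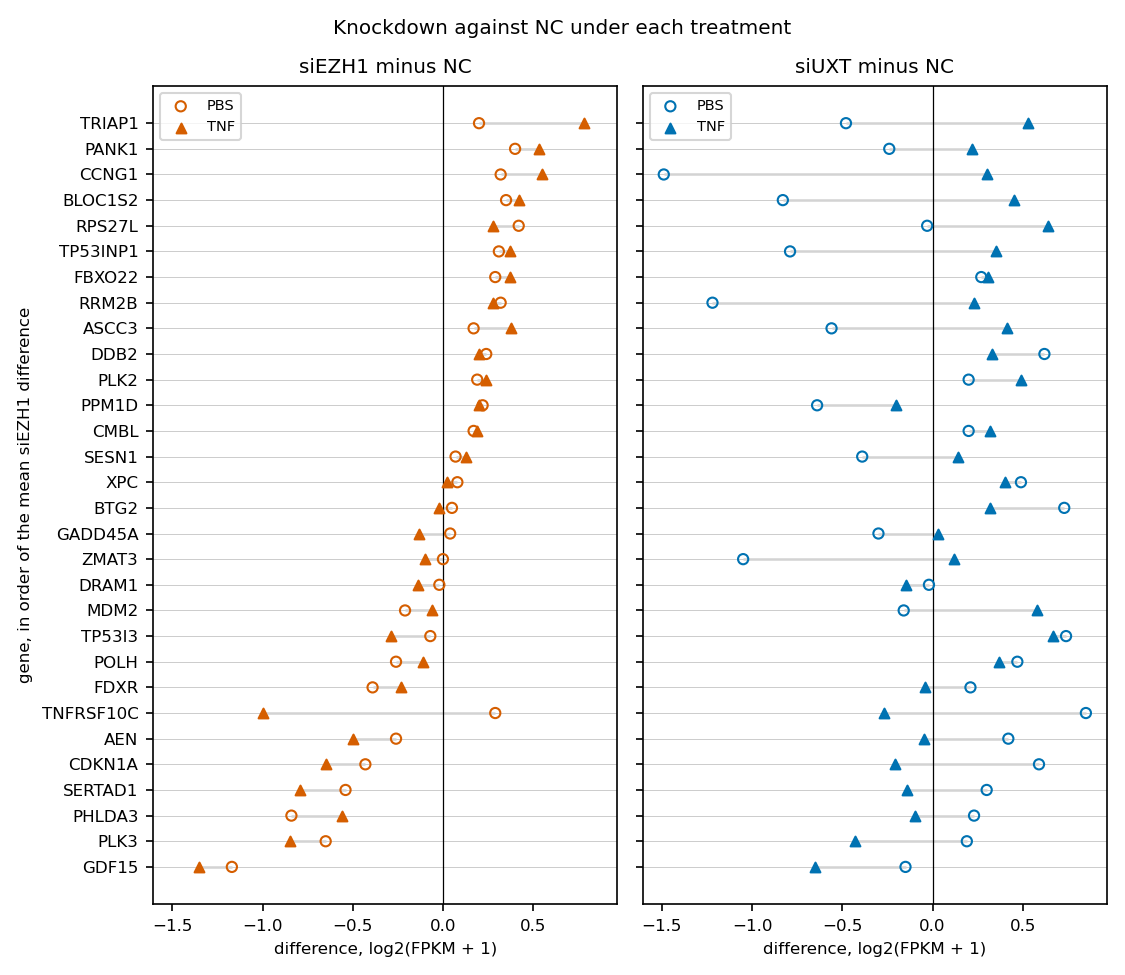
Difference from NC on the log2(FPKM + 1) scale (horizontal axis) for the 30 tested genes (vertical axis, ordered by the mean siEZH1 difference), siEZH1 on the left and siUXT on the right, with open circles for PBS, triangles for TNF and a grey line joining the treatments. The siEZH1 points of a gene lie close together except for TNFRSF10C and TRIAP1, while the siUXT points of CCNG1, RRM2B and ZMAT3 lie on opposite sides of 0.

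After siUXT, 8 of the 30 members were higher than in NC with both treatments, against 22.8% of all loci. They were TP53I3, XPC, DDB2, PLK2, BTG2, FBXO22, POLH and CMBL. Lower with both treatments were 3 members (GDF15, PPM1D and DRAM1), against 17.1% of all loci. Many other members were lower with PBS and higher with TNF. TP53I3 was at 21.2 and 20.4 FPKM in siUXT against 12.3 and 12.5 FPKM in NC, PBS first, and was the 1 member at least 1.5-fold higher with both treatments, which 0.346% of all loci were. Limma called 0 of the 30 members at a Benjamini-Hochberg adjusted p under 0.05, where 0.0253% of all loci were called higher and 0.0169% lower. At an unadjusted p under 0.05 limma gave 4 members higher (TP53I3, XPC, DDB2 and BTG2), against 2.16% of all loci, and 0 lower, against 1.49%.

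For TP53I3 the log2 differences were 0.74 and 0.67, limma's estimate was 0.71 with an SE of 0.18, and the Benjamini-Hochberg adjusted p was 0.91. XPC stood at 1.44 and 1.35 times NC, DDB2 at 1.56 and 1.26 times and POLH at 1.45 and 1.35 times. For these 4 genes, FBXO22 and CMBL, both siUXT libraries lay above both NC libraries, which is 6 of 30 members, against 17.3% of all loci. PPM1D, at 4.72 and 6.42 FPKM against 7.93 and 7.51 FPKM, was the 1 member with both siUXT libraries below both NC libraries, against 12.9% of all loci. The repair genes had a median difference of 0.47 with PBS and 0.37 with TNF, against 0.04 and 0.01 over all loci. With PBS 3 of the 5 were higher, against 6323 of all 11845 loci, while RRM2B was at -1.22 and ASCC3 at -0.56. With TNF all 5 were higher, against 6162 of all loci.

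The library with PBS held the lowest values of CCNG1, RRM2B, ZMAT3 and TP53INP1 in the series. CCNG1 stood at 0.336 of NC PBS, ZMAT3 at 0.362, RRM2B at 0.394, TP53INP1 at 0.527 and BLOC1S2 at 0.544. With TNF the same 5 genes stood at 1.24, 1.11, 1.18, 1.31 and 1.39 times NC. Being lower with PBS and higher with TNF held for 12 of the 30 members, against 29.2% of all loci, and the reverse for 7, against 30.5%. At least 1.5-fold lower with PBS were 6 members, against 16.4% of all loci, and at least 1.5-fold higher 5 members (CDKN1A, TP53I3, DDB2, BTG2 and TNFRSF10C), against 4.11%. CDKN1A stood at 1.51 times NC with PBS and at 0.866 times with TNF, and BTG2 at 1.70 and 1.25 times.

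With TNF, where the siUXT library did not stand apart, 2 members were at least 1.5-fold higher than in NC, TP53I3 and RPS27L, against 3.12% of all loci, and 1 was lower, GDF15, against 3.06%. RPS27L was at 65.1 FPKM against 41.4 FPKM, and GDF15 at 131 FPKM against 205 FPKM. MDM2 was at 1.52 times its NC TNF value, just under that fold on the log2(FPKM + 1) scale at 0.58. With siUXT PBS left out, limma called RPS27L higher (0.68, Benjamini-Hochberg adjusted p = 0.046) and 0 members lower, against 0.439% and 0.65% of all loci. With siUXT TNF left out it called 5 higher (CDKN1A, TP53I3, XPC, DDB2 and BTG2) and 7 lower (ZMAT3, TP53INP1, RRM2B, CCNG1, PPM1D, BLOC1S2 and ASCC3), against 12% and 18.4%. Without NC PBS, NC TNF, siEZH1 PBS or siEZH1 TNF it called 0 members, against 0.177%, 0.186%, 0.22% and 0.236% of all loci higher and 0.211%, 0.473%, 0.329% and 0.329% lower. A lone library of a transfection in these fits borrows its spread from the other transfections and from all loci. Without an NC or siEZH1 library the spread comes from all loci at a similar level alone. Spearman's rho with gene span was -0.27 with PBS and 0.07 with TNF across the members, against -0.22 and 0.19 across all 9627 loci with a span, and its part was not tested.

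Of the 29 listed regulators of p53, 28 were tested and 0 were called in any of the 3 comparisons by limma with Benjamini-Hochberg adjustment. At an unadjusted p under 0.05 it gave 1 higher and 0 lower with TNF, against 2.92% and 1.04% of all loci. The same counts were 3 and 1 after siEZH1, against 1.7% and 6.51%, and 1 and 1 after siUXT, against 2.16% and 1.49%. Without siUXT PBS it called 8 regulators higher and 2 lower after siEZH1, against 11.8% and 14.7% of all loci, 1 higher and 0 lower with TNF, against 2.47% and 0.295%, and 0 after siUXT, against 0.439% and 0.65%. SIRT1, a deacetylase of p53, was at 10.2 and 11.0 FPKM in siEZH1 against 6.17 and 8.34 FPKM in NC, and at 2.66 FPKM in siUXT PBS. CDKN2A, which encodes the MDM2 inhibitor ARF besides p16, was at 23.9 and 29.6 FPKM in NC. It was at 18.3 and 17.6 FPKM in siEZH1 and at 22.2 and 20.1 FPKM in siUXT. RCHY1, a ubiquitin ligase for p53, was at 1.29 FPKM in siUXT PBS and between 3.91 and 7.14 FPKM elsewhere.

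Other established p53 targets were read from 2 further lists. Of 12 tested targets with a role in cell death, 0 were called with TNF by limma with Benjamini-Hochberg adjustment, 3 were higher at an unadjusted p under 0.05, against 2.92% of all loci, and 3 were called higher without siUXT PBS, against 2.47%. BBC3 (PUMA) was at 23.8, 14.0 and 21.9 FPKM with TNF against 10.3, 7.10 and 10.9 FPKM with PBS in NC, siEZH1 and siUXT, and the median difference of the list was 0.15, 0.24 and 0.22 in the same order. Of 28 tested targets with other roles, limma called 1 higher with TNF and 0 lower, against 0.405% and 0.00844% of all loci, and without siUXT PBS 2 higher and 2 lower, against 2.47% and 0.295%. The gene called with all libraries was NINJ1, which mediates plasma membrane rupture in dying cells, at 103, 60.8 and 69.1 FPKM with TNF against 31.9, 18.2 and 35.2 FPKM with PBS, and it rose by a mean of 1.43 ± 0.42 (SD, n = 3; limma Benjamini-Hochberg adjusted p = 0.047). EPHA2, an ephrin receptor kinase, was at 68.3, 36.7 and 64.3 FPKM with TNF against 31.0, 22.3 and 46.0 FPKM with PBS. TOB1, an antiproliferative relative of BTG2, went the other way, at 24.5, 32.7 and 32.0 FPKM with TNF against 39.8, 42.7 and 53.9 FPKM. After siEZH1 and after siUXT, 0 of the 40 genes on these 2 lists were called by limma with Benjamini-Hochberg adjustment; at an unadjusted p under 0.05 it gave 1 higher and 6 lower after siEZH1, against 1.7% and 6.51% of all loci, and 0 higher and 1 lower after siUXT, against 2.16% and 1.49%. Without siUXT PBS it called 3 higher and 7 lower after siEZH1, against 11.8% and 14.7%, and 0 higher and 1 lower after siUXT, against 0.439% and 0.65%. NINJ1 in siEZH1 was at 18.2 and 60.8 FPKM against 31.9 and 103 FPKM in NC, and KITLG, the ligand of the KIT receptor, at 258 and 194 FPKM against 166 and 116 FPKM.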

How the data were processed

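RNA-seq of 6 HCT116 libraries was read from the FPKM tables deposited by the authors, which give each library 1 value for every symbol. Per the submitters' processing notes, FastQC, cutadapt, TopHat2, Bowtie and SICER were used and the build was hg19; versions, the program that made the FPKM values, the annotation and the strand setting are not stated in those sources, so values of overlapping and antisense genes are uncertain. Read depth is not given; relative depth came from steps among values under 0.4 FPKM (tolerance 1%). Libraries were grouped by their titles. Symbols with identical values were merged, those reaching a mean of 1 FPKM were tested as log2(FPKM + 1), which understates differences of low genes, and limma (version 3.58.1, R 4.3.3; lmFit, eBayes with trend) fitted transfection and treatment together, with Benjamini-Hochberg adjustment over 11845 loci and a threshold of 0.05. Single pairs of libraries have no test; their 1.5-fold counts are on the same log2 scale. The comparisons of each knockdown with NC share the NC libraries. The scripts were tested on simulated data. Tables and rank correlations were made in Python 3.11.15 (scipy 1.17.1, pandas 2.3.3, numpy 2.4.6), and plots with matplotlib 3.10.9. Alternatives were a pseudocount of 0.1, no filter, a minimum of 5 FPKM, median-of-ratios size factors (1 to 1.051), eBayes without trend, and leaving out each library. The members and lists were chosen with earlier results of these data known. All 33 members are reported; of the other lists, named genes are among the 4 with the largest mean difference in a comparison, besides EZH1 and UXT. A gene that the rule also names is not reported here.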

Additional observations from a re-analysis of the deposited data

Results flagged for a closer look

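For 8 pairs of values a p53 target gene differed in opposite directions in 2 groups under the same contrast, each by at least 0.3 and together by at least 1 on the log2(FPKM + 1) scale. With 1 library per condition none of these differences was tested. No share of all loci is given for this rule, and some genes enter more than 1 pair. The 8 pairs therefore cannot be read as particular to p53 targets. Without the size limits, 29.2% of all loci were lower in siUXT than in NC with PBS and higher with TNF, and 30.5% the reverse.

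The TNF difference of CCNG1 was -0.45 in NC and 1.34 in siUXT, a gap of -1.79, and its siUXT difference was -1.49 with PBS and 0.30 with TNF, a gap of -1.79 by construction. For TRIAP1 the TNF difference was -0.41 in NC and 0.60 in siUXT (gap -1.01), and the siUXT difference was -0.48 with PBS and 0.53 with TNF (gap -1.01). The siUXT difference of TP53INP1 was -0.79 with PBS and 0.35 with TNF (gap -1.13), and that of BLOC1S2 was -0.83 and 0.45 (gap -1.28). These values all include the siUXT PBS library, which stood apart over all loci.

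The TNF difference of the TNFRSF10C locus was 0.72 in NC, -0.57 in siEZH1 (gap 1.29) and -0.39 in siUXT (gap 1.11). Its level was at most 5.48 FPKM, and its values cannot be separated from those of LOC254896.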

How the results depend on the processing

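With all 6 libraries, no p53 target gene was called by limma in any of the 3 comparisons under any of the other settings (pseudocount, filters, size factors, no trend). Leaving out 1 library at a time, the members called higher and lower ranged from 0 to 6 and stayed at 0 with TNF, from 0 to 5 and 0 to 7 after siEZH1, and from 0 to 5 and 0 to 7 after siUXT. The medians of the members, 0.11, 0.03 and 0.07 in the 3 comparisons, ranged from -0.09 to 0.22, from -0.04 to 0.15 and from 0.05 to 0.24. Over all loci, calls higher and lower ranged from 100 to 294 and 24 to 35 with TNF, from 14 to 1396 and 24 to 1750 after siEZH1, and from 21 to 1425 and 25 to 2179 after siUXT, against 48 and 1, 0 and 2, and 3 and 2 with all libraries. These fits have 1 residual degree of freedom. Those without an NC or siEZH1 library have infinite prior degrees of freedom, so they are not like for like with those without a siUXT library. Without a filter 23 loci were called higher with TNF; 0 were called lower with a pseudocount of 0.1, without a filter, with size factors or without trend. At 5 FPKM siEZH1 had 1 locus lower and siUXT 0 higher and 1 lower; with a pseudocount of 0.1 siUXT had 0 and 0. With a pseudocount of 0.1, 1 member was at least 1.5-fold lower with TNF in NC and 1 in siEZH1. At that pseudocount 2 members were at least 1.5-fold higher in siEZH1 TNF than in NC TNF. With size factors 3 members were at least 1.5-fold higher in siUXT PBS than in NC PBS. Shares of all loci are not given for these counts.

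Estimates were recomputed for members with an unadjusted p under 0.05 in limma or called with 1 library left out. Of these, the ones that changed sign when 1 library was left out were, after siEZH1, RRM2B (-0.08 to 0.68) and CCNG1 (-0.07 to 0.94), and after siUXT, CDKN1A (-0.15 to 0.53), ZMAT3 (-1.07 to 0.15), TP53INP1 (-0.77 to 0.33), RRM2B (-1.23 to 0.24), CCNG1 (-1.44 to 0.24), RPS27L (-0.06 to 0.68), BLOC1S2 (-0.81 to 0.44) and ASCC3 (-0.50 to 0.36). The cause was not tested. Other members are described by their pairs of libraries; with TNF, CCNG1, RRM2B and ZMAT3 had negative differences in NC and siEZH1 and positive ones in siUXT. A block by replicate number could not be fitted, because the labels give no replicate numbers and each condition has 1 library; PBS and TNF libraries were paired by transfection in the model and in the differences.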

Other observations

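Cell cycle genes that p53 is known to lower through p21 and the DREAM repressor complex were read as a further list. Of its 18 tested genes, 0 were called by limma with Benjamini-Hochberg adjustment in any comparison; at an unadjusted p under 0.05 it gave 1 lower after siEZH1, against 6.51% of all loci, and 1 lower after siUXT, against 1.49%. Without siUXT PBS it called 7 higher and 1 lower after siEZH1, against 11.8% and 14.7% of all loci, 0 higher and 1 lower after siUXT, against 0.439% and 0.65%, and 0 with TNF, against 2.47% and 0.295%. CDK1, the mitotic kinase, was at 80.4 and 64.6 FPKM in NC, at 104 and 90.6 FPKM in siEZH1 and at 19.7 and 69.8 FPKM in siUXT, PBS first. BIRC5, survivin, was at 96.5 and 89.3 FPKM in NC. It was lower in both siEZH1 libraries, at 62.5 and 64.7 FPKM, and in both siUXT libraries, at 73.5 and 59.1 FPKM. The median of the list was 0.15 and 0.23 for siEZH1 against NC with PBS and TNF, and -0.12 and 0.06 for siUXT. In siUXT PBS 4 of the 18 genes were higher than in NC, against 6323 of all 11845 loci.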
